A study of Mus musculus with 4 samples.

Results

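Endothelial genes of leukocyte adhesion were followed through the mouse brain after transient middle cerebral artery occlusion (tMCAO), a model in which a filament blocks the artery for a limited time and is then withdrawn so that blood returns. They were Ackr1, Sele, Selp, Icam1, Vcam1, Il1r1 and Vwf, 7 of the 31053 genes counted, and each was found in the count tables by its symbol. These genes had been picked because of their levels in the same libraries, so everything below about those levels is a description, with no test. The data were single-cell RNA libraries made on a droplet platform that tags each RNA molecule with a unique molecular identifier (UMI). Each of the 4 groups, a sham operation and tMCAO at day 1, 3 and 7, was represented by 1 library of cells from the ipsilateral hemisphere of male mice 8 weeks old, perfused with cold saline, digested with papain and freed of myelin on Percoll. The mice were C57/BL6 in every group, with no genetic change given, and the sham library was placed at day 7, after the same operation without occlusion. All comparisons with sham share this 1 library. The number of mice behind a library is not given in the sources used here. With 1 library per group, the intervals given below are 95% intervals for counting error only and hold nothing of the spread between mice.

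Leukocytes leave the blood mostly across the walls of postcapillary venules, in an ordered series of steps. Selectins on the endothelium slow the cells so that they roll, chemokines held on the vessel surface activate them, and members of the immunoglobulin family bind leukocyte integrins and hold them firmly. Interleukin 1 and tumour necrosis factor are the classical signals that switch this programme on through the transcription factors of the NF-κB family. In the healthy brain the programme is restrained, and the adhesion molecules are found chiefly on venules.

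Among the adhesion genes, the stretches of DNA just upstream of Sele, Selp and Icam1 are shown here because NF-κB is a textbook inducer of such genes. No sequence is shown for Vcam1. Each sequence is the 250 bases before the RefSeq start (GRCm38.p6), read 5′ to 3′ on the strand of the gene, and none of these bases lies in an annotated exon. The Sele window is chr1:164047984-164048233, the Selp window is chr1:164115014-164115263 and the Icam1 window is chr9:21015690-21015939, all on the plus strand. Capitals mark matches on either strand to GGNNNTTCC, the general form of an NF-κB site, and to TGANTCA, the form bound by AP-1.
Sele: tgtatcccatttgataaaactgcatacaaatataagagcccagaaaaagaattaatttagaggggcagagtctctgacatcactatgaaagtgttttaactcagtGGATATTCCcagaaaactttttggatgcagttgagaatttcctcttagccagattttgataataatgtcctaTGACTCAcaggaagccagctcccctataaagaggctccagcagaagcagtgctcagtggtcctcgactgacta
Selp: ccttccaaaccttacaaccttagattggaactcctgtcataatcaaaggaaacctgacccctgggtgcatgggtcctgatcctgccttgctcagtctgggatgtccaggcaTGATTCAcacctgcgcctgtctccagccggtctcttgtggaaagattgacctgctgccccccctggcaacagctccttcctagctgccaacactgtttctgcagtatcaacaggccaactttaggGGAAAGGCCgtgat
Icam1: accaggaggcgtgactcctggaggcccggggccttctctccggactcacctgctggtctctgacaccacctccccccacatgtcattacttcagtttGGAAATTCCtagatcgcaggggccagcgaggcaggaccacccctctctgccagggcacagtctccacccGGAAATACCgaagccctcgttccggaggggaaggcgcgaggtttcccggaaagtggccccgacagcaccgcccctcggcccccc

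These letters were searched after the sequences had been seen, and a match is a description of the window, not a site of binding. Sele had GGATATTCC at 145 to 137 bases before its start and TGACTCA at 73 to 67 bases before it. Selp had TGATTCA at 139 to 133 bases and GGAAAGGCC at 14 to 6 bases before the start. Icam1 had both GGAAATTCC at 153 to 145 bases and GGAAATACC at 84 to 76 bases. The NF-κB form was present in 15.7% of the 32851 windows of all genes and the AP-1 form in 6.75%. The second of the Il1r1 starts had GGAATGCCC at 232 to 224 bases, and the first had neither form. The RefSeq start of Icam1 is 45 bases from the nearest GENCODE start. The Ackr1 window lay inside annotated exons and is not shown, although it too held a match, GGAAGCCCC at 131 to 123 bases. For Vcam1 and Vwf no window was in the table used here.

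On GRCm38 the genes lie at chr1:173331886-173333750 (Ackr1, minus strand), chr1:164048234-164057677 (Sele, plus), chr1:164115264-164150026 (Selp, plus) and chr9:21015985-21028817 (Icam1, plus). Vcam1 lies at chr3:116109949-116129688 on the minus strand, Il1r1 at chr1:40225080-40317257 on the plus strand and Vwf at chr6:125546774-125686679 on the plus strand. All are protein-coding genes. Ackr1 shares 361 of its 1405 exon bases with Cadm3, a neuronal cell adhesion gene on the same strand, so reads from that stretch cannot be assigned to one of the genes. Selp, Icam1 and Vcam1 overlap predicted genes on the opposite strand by 438 and 186, 511 and 61 exon bases, respectively.

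The 4 libraries held 11744 to 17922 barcodes with 69392755 to 104023002 UMIs, of which 7562 to 14044 cells per library (44360 in all) passed the study's limits on genes and mitochondrial UMIs. Pairs of libraries shared 12 to 50 cell barcodes among the cells kept. Cells were sorted by their marker genes, and 26063 of them were endothelial-like, carrying at least 3 of Cldn5, Ly6c1, Ly6a, Itm2a, Flt1 and Egfl7. Of these, 24243 were placed in an arterial, capillary or venous zone by zone markers that included none of the 7 genes, and 1820 had too few markers or no lead of one zone and are called unzoned. The venous-like cells numbered 126 in sham, 218 at day 1, 491 at day 3 and 217 at day 7, against 3848, 5561, 3972 and 7227 capillary-like and 471, 488, 686 and 938 arterial-like cells. Venous-like cells were 2.66%, 3.24%, 8.69% and 2.43% of the endothelial-like ones. Levels are given as counts per 1000000 UMIs (CPM) of the summed cells of a zone. The sorting markers themselves moved, in both directions. In capillary-like cells the venous marker Tmem252 was 182 CPM in sham and 620 CPM at day 3, and the venous marker Flrt2 38.9 and 10.2 CPM. The capillary marker Car4 was 1010 and 376 CPM there, and the capillary marker Slc7a5 854 and 928 CPM. The part of this in the venous share was not tested.

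The zone names were checked against genes that the sorting had not used. Summed over Lcn2, Plvap, Ch25h and Tgm2, venous-like cells had 1743, 1608, 12340 and 3232 CPM in sham and at days 1, 3 and 7, and capillary-like cells 214, 286, 1154 and 323 CPM. Plvap went against the name at the later times, with 2.33 CPM in venous-like and 152 CPM in capillary-like cells at day 3 and with 19.2 and 72.0 CPM at day 7. The rise of the sum at day 3 was mostly that of Lcn2, an acute-phase iron-binding protein, from 741 to 11100 CPM in venous-like cells. The capillary name was borne out less well by its check genes. Summed over Slc22a8, Slc6a6, Slco1c1 and Tgfb2, capillary-like cells had 3418, 2720, 3110 and 4590 CPM and arterial-like cells 3038, 3241, 2827 and 4326 CPM, so that the arterial sum was the higher one at day 1. Slc6a6 and Tgfb2 were higher in arterial-like than in capillary-like cells in every library, while Slc22a8 and Slco1c1 were lower. Arterial-like cells had 661 to 948 CPM of Gja4, Gja5, Dkk2 and Alpl together, and venous-like cells 4.81 to 28.5 CPM. The name venous-like therefore means cells with more venous than other zone markers, and cells with a lead of only 1 marker made up 58 of 126, 113 of 218, 206 of 491 and 109 of 217.

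Among the arterial, capillary and venous zones all 7 genes were highest in venous-like cells, and the group of Ackr1, Sele and Selp peaked there at day 3. Ackr1 reached 4443 CPM in venous-like cells at day 3 from 281 CPM in sham, while Sele and Selp went from below 20 CPM to 313 and 601 CPM. By day 7 these 3 genes had come down again, to 546, 91.2 and 22.4 CPM. Icam1 in venous-like cells was highest at day 7, and Vcam1 could not be told apart between days 3 and 7, with a ratio of 1.06 (0.999 to 1.13). In arterial-like and all endothelial-like cells Icam1 and Vcam1 were highest at day 3. Vwf lay between 2960 and 3587 CPM in venous-like cells as drawn from single cells, though not as drawn from clusters, and in capillary-like cells it stood at 125 CPM in sham and 646 CPM at day 1.

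In this description a gene is counted as higher where its level was at least 2-fold that of sham after 10 CPM had been added to both, and as measurable where it had at least 20 CPM in one of the libraries compared. Over all endothelial-like cells, 2 of 5 measurable members were counted at day 1 (Ackr1 and Vwf), 7 of 7 at day 3 and 0 of 5 at day 7, beside 1.23%, 1.55% and 0.406% of all measurable genes. Within venous-like cells the counts were 2 of 7 at day 1 (Sele and Selp), 3 of 7 at day 3 (Ackr1, Sele and Selp) and 2 of 7 at day 7 (Sele and Icam1), beside 3.03%, 3.52% and 2.59% of all measurable genes. None was lower than sham by the same measure at any time, beside 6.90%, 4.72% and 1.69% of genes. From day 1 to day 3 the venous-like levels of Ackr1, Selp and Vcam1 were counted as higher, beside 2.65% of genes, and from day 3 to day 7 those of Ackr1, Sele and Selp as lower, beside 3.12%. Because the members were chosen on these libraries, nothing is read from the counts against those shares. When zones were taken from clusters instead of single cells, the venous counts became 4 at day 1 (Ackr1, Sele, Selp and Vwf), 7 at day 3 and 3 at day 7 (Ackr1, Sele and Icam1), beside 1.26%, 3.39% and 0.841% of all genes measurable in those cells, with 578 to 1065 cells per library called venous-like. Those cells came from 2 clusters. The first, of 1489 cells, held 174, 307, 618 and 390 from sham and days 1, 3 and 7. The second, of 1731 cells, held 404, 500, 152 and 675, and it also carried capillary markers above the average. The make-up of the venous-like cells from clusters thus differed between libraries, and its part in their ratios to sham was not tested. At day 1 and day 3 the median gene of venous-like cells lay 0.157 and 0.107 below sham on the log2 scale, and the ratios are given without a correction for it.

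**Figure D1:**
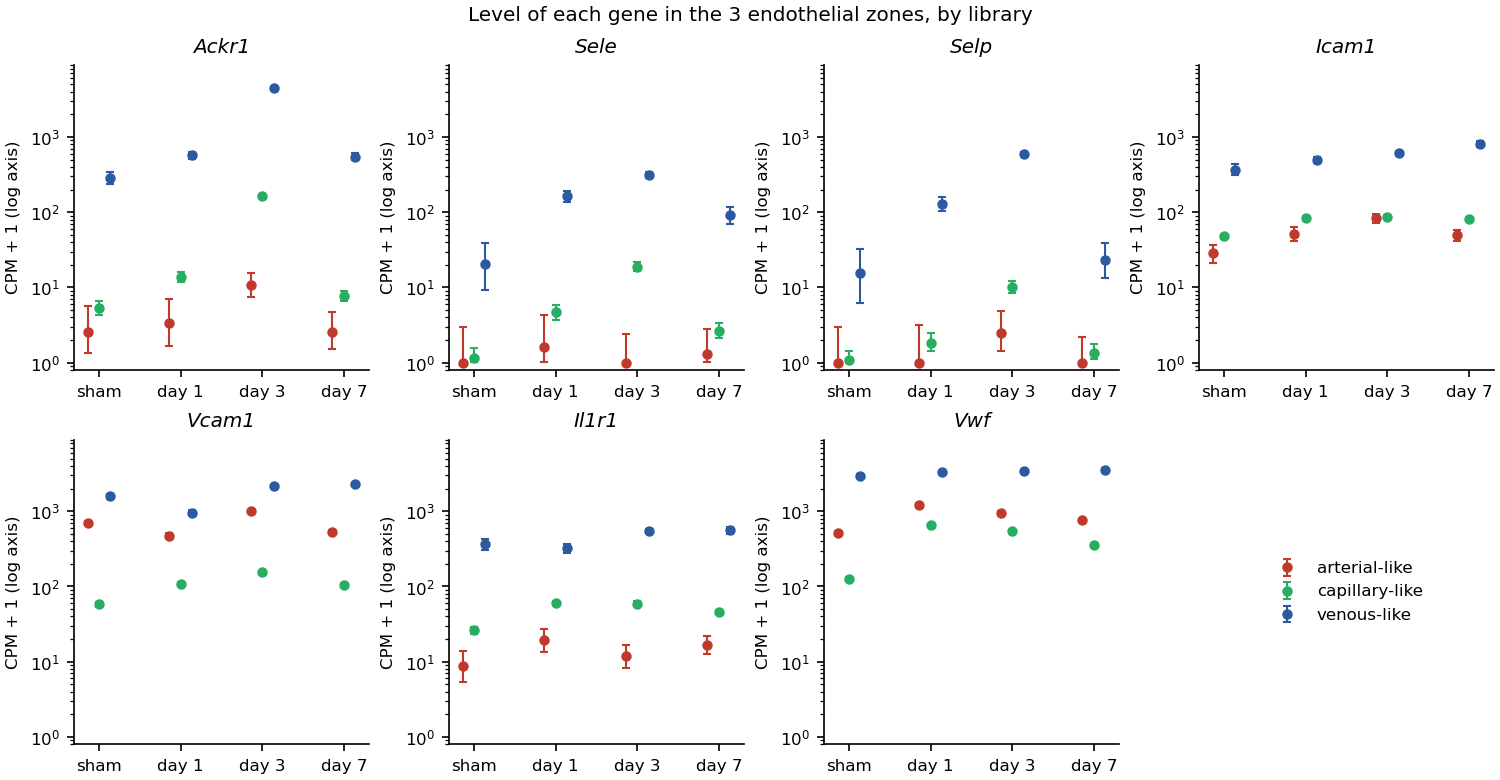
Level of each gene (CPM with 1 added, logarithmic axis) in arterial-like, capillary-like and venous-like cells of the 4 libraries, each point the summed cells of 1 zone in 1 library and each bar the 95% counting interval. Venous-like cells lie above the other zones for every gene and library, and within them Ackr1, Sele and Selp are highest at day 3.

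The selectins Sele and Selp encode E-selectin and P-selectin, the molecules that capture flowing leukocytes by their sugars. E-selectin is made anew after an inflammatory signal, whereas P-selectin is also stored ready-made in the Weibel-Palade bodies of endothelial cells. Sele in venous-like cells was 19.2 CPM (8.31 to 37.9, from 8 UMIs) in sham, 162 CPM (134 to 193) at day 1, 313 CPM (287 to 340) at day 3 and 91.2 CPM (69.1 to 118) at day 7. The 3 tMCAO libraries all lay above sham with counting intervals that did not overlap. Relative to sham this was 8.40-fold (4.13 to 19.9) at day 1, 16.3-fold (8.19 to 37.9) at day 3 and 4.74-fold (2.25 to 11.5) at day 7. Selp in the same cells was 14.4 CPM (5.29 to 31.4, from 6 UMIs), 128 CPM (104 to 157), 601 CPM (565 to 639) and 22.4 CPM (12.2 to 37.6) in that order. The interval at day 7 overlapped that of sham, and the ratio there was 1.55 (0.560 to 4.93), after 41.7-fold (19.1 to 114) at day 3. With 10 CPM added the ratio of day 3 was 25.0, and 10.7 with an upper limit of 6000 genes per cell. The level of Selp at day 7 was thus 0.0373 (0.0203 to 0.0628) of that at day 3, and the level of Sele 0.292 (0.218 to 0.384). In arterial-like cells the selectins were close to absent, with at most 1 UMI of Sele and 4 UMIs of Selp in any library. Unzoned cells held 16 of the 23 Selp UMIs of the sham library, a level of 16.9 CPM (9.63 to 27.4) that overlapped the venous-like one, and had 11.4, 75.5 and 4.00 CPM at days 1, 3 and 7. Their Sele was 7.37, 18.3, 77.5 and 13.3 CPM, also highest at day 3.

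Platelets also carry P-selectin and von Willebrand factor, so the platelet markers were read in the same cells. Of 6 platelet genes, only 1 or 2 had any UMI in venous-like cells of a library, and Ppbp, Gp9, Gp1bb and Treml1 had none in all 4. Their sum was 24.1, 26.7, 40.2 and 9.60 CPM in sham and at days 1, 3 and 7. The part of platelets in the Selp and Vwf values was not tested.

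Ackr1 encodes the atypical chemokine receptor of venules and red cells, the Duffy antigen, which binds inflammatory chemokines without signalling and carries them across the endothelium. It stood at 281 CPM (233 to 337) in sham venous-like cells, 569 CPM (516 to 626) at day 1, 4443 CPM (4344 to 4544) at day 3 and 546 CPM (489 to 607) at day 7. The libraries of day 1 and day 7 were alike within counting error and above sham, and that of day 3 lay far above the rest. The ratios to sham were 2.02 (1.64 to 2.5), 15.8 (13.2 to 19.1) and 1.94 (1.57 to 2.41), and day 7 was 0.123 (0.110 to 0.137) of day 3. With 10 CPM added the ratio of day 3 was 15.3, and 47.5 with zones taken from clusters. Capillary-like cells showed the same order at a lower level, with 4.38, 12.8, 163 and 6.75 CPM, which is 37.3-fold (28.5 to 49.8) at day 3 over sham. Unzoned cells had 15.8, 52.6, 1142 and 81.4 CPM, or 72.3-fold (43.7 to 129.5) at day 3. In arterial-like cells Ackr1 had 3, 4, 26 and 5 UMIs, or 1.58, 2.39, 9.85 and 1.58 CPM. The day 3 interval, 6.43 to 14.4 CPM, overlapped that of oligodendrocyte-like cells, at 6.17 CPM (4.22 to 8.70). The part of free RNA in the droplets in the arterial-like values was not tested. Red cells make Ackr1 in their precursors, and the summed erythrocyte markers in venous-like cells were 288.5, 33.4, 290 and 1541 CPM in sham and at days 1, 3 and 7. The part of red cells in the Ackr1 values was not tested. Neutrophil markers were also highest at day 3, going from 0 CPM in sham, where 3 counts would be 7.21 CPM, and 1.34 CPM at day 1 to 68.7 CPM at day 3 and 8.00 CPM at day 7, with S100a8, S100a9 and Retnlg detected at day 3 and Mmp8, Trem1 and Mmp9 at 0 there. No UMI of Ackr1 was found in the 51 neutrophil-like cells of that library, where 3 counts would be 9.92 CPM. The part of neutrophils in the venous-like values was not tested.

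Within venous-like cells at day 3 Ackr1 was spread over more cells than Selp. The median venous-like cell had 8 UMIs of Ackr1 and the highest 141, and the 50 highest of 491 cells held 39.5% of the UMIs. For Selp the median was 0 and the highest 102, and the 50 highest cells held 75.0%. Sele also rested on few cells, with a median of 0 at every time, and 87.6% of its UMIs at day 1 were in the 22 highest of 218 cells, 67.8% at day 3 in the 50 highest of 491 and 100% at day 7 in the 22 highest of 217. The counting intervals of its ratios take no account of this. At the other times the median of Ackr1 was 0, and in sham the maximum was 22 and the 13 highest of 126 cells held 74.4%.

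Icam1 and Vcam1 encode the immunoglobulin-family ligands of the leukocyte integrins, the first of the β2 integrins and the second of VLA-4. Icam1 in venous-like cells was 368 CPM (312 to 431), 496 CPM (446 to 549), 607 CPM (571 to 645) and 800 CPM (731 to 873) in sham and at days 1, 3 and 7. Each library lay above the one before it, and the ratio to sham reached 2.17 (1.81 to 2.62) at day 7. These levels rested on few cells, with 77.1% of the Icam1 UMIs in the 13 highest of 126 cells in sham. At day 7, 61.2% were in the 22 highest of 217. The counting intervals take no account of this, and the share of cells with Icam1, given below, was not highest at day 7. At day 1 the ratio was 1.35 (1.11 to 1.64), and 0.991 with an upper limit of 6000 genes per cell and 10 CPM added. In capillary-like cells Icam1 was 46.6, 83.0, 85.2 and 80.3 CPM, with ratios of 1.78, 1.83 and 1.72 that were alike at the 3 times. In arterial-like cells it was 27.4, 50.8, 82.2 and 48.4 CPM, and the ratio at day 3 was 3.00 (2.21 to 4.15). Vcam1 moved differently. In venous-like cells it was 1587 CPM (1468 to 1713) in sham, 953.5 CPM (885 to 1026) at day 1, 2146 CPM (2077 to 2216) at day 3 and 2281 CPM (2164 to 2403) at day 7. Day 1 was thus below sham, with a ratio of 0.601 (0.540 to 0.669), and the later times were above it at 1.35 (1.24 to 1.47) and 1.44 (1.31 to 1.58). In sham the 13 highest of 126 cells held 56.7% of the Vcam1 UMIs, and the highest cell had 77. The counting intervals of these ratios take no account of this. With zones taken from clusters the ratio of day 1 was 1.18 with 10 CPM added, on the other side of 1. Arterial-like cells were also lower at day 1, with 693, 473, 1013 and 530 CPM, and a ratio of 0.683 (0.625 to 0.747). Capillary-like cells had 57.2, 108.5, 153 and 105 CPM and lay above sham each time, at 1.90-fold (1.73 to 2.08), 2.68-fold (2.45 to 2.93) and 1.83-fold (1.68 to 2).

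Il1r1 encodes the signalling receptor for interleukin 1. It was 361 CPM (305 to 423) in sham venous-like cells, 319 CPM (280 to 362) at day 1, 547 CPM (513 to 583) at day 3 and 555 CPM (498 to 617) at day 7. Sham and day 1 could not be told apart by their intervals, and neither could day 3 and day 7, which stood at 1.52 (1.28 to 1.81) and 1.54 (1.27 to 1.88) times sham. Capillary-like cells had 25.1, 59.3, 57.8 and 44.8 CPM, with a ratio of 2.36 (2.07 to 2.70) at day 1. Arterial-like cells were lowest, at 7.89 to 18.5 CPM. With zones taken from clusters the venous-like ratio of day 1 was 1.60 in place of 0.888, both with 10 CPM added.

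Vwf encodes von Willebrand factor, the large clotting protein that builds Weibel-Palade bodies and catches platelets. In venous-like cells it was 2960 CPM (2797 to 3130), 3320 CPM (3191 to 3453), 3436 CPM (3349 to 3525) and 3587 CPM (3440 to 3738), and with these zones no ratio to sham exceeded 1.21 (1.13 to 1.30). The ratio of day 1, 1.12 with 10 CPM added, became 0.885 with an upper limit of 6000 genes per cell. The level of venous-like Vwf against sham depended on how the zone was drawn. With zones from clusters the ratios, with 10 CPM added, were 2.28, 3.63 and 1.70 at days 1, 3 and 7. Of the venous-like cells from clusters, 404 of 578 in sham and 152 of 770 at day 3 were in the cluster with raised capillary markers. Capillary-like cells went from 125 CPM (119 to 131) in sham to 646 CPM (633 to 660) at day 1, 552 CPM (537 to 566) at day 3 and 355 CPM (346 to 364) at day 7. This was 5.18-fold (4.91 to 5.47), 4.42-fold (4.18 to 4.67) and 2.84-fold (2.69 to 3.01) over sham, falling with time but above it throughout. Arterial-like cells had 518, 1219, 957 and 754 CPM, with ratios of 2.35, 1.85 and 1.45. Among capillary-like cells Vwf was the member counted as higher at day 1 and day 7, and Ackr1, Vcam1 and Vwf were counted at day 3, beside 1.32%, 1.47% and 0.575% of all measurable genes at days 1, 3 and 7. With an upper limit of 6000 genes per cell the capillary-like count at day 3 was 5, beside 1.61% of all measurable genes, and did not include Vcam1. Among arterial-like cells Vwf was counted at day 1, Icam1 at day 3 and no member at day 7, beside 1.18%, 0.847% and 0.554%.

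The lead of venous-like over capillary-like cells differed between the genes and the times. In sham it was 64.3-fold (46.3 to 90.3) for Ackr1, 27.8-fold (24.9 to 30.9) for Vcam1, 23.7-fold (22.0 to 25.6) for Vwf, 14.4-fold (11.7 to 17.5) for Il1r1 and 7.89-fold (6.56 to 9.45) for Icam1. All 5 measurable members were counted as higher in the venous zone in sham, beside 3.87% of all measurable genes, and all 7 were at days 1, 3 and 7, beside 2.28%, 2.84% and 3.38%. At day 1 the lead of Vwf was 5.14-fold (4.91 to 5.37) and that of Il1r1 5.38-fold (4.64 to 6.23), with Vcam1 at 8.79-fold (8.02 to 9.62). By day 7 they stood at 10.1-fold, 12.4-fold and 21.8-fold. Icam1 stayed between 5.97-fold and 9.96-fold. Ackr1 had a lead of 44.3-fold at day 1, 27.2-fold (25.8 to 28.7) at day 3 and 80.9-fold at day 7. The order of its leads turned with 10 CPM added, which gave 20.3-fold in sham, 25.3-fold at day 1, 25.7-fold at day 3 and 33.2-fold at day 7. The selectins had too few UMIs in sham capillary-like cells for a ratio, and at day 3 their leads were 17.4-fold (14.7 to 20.7) for Sele and 64.9-fold (52.6 to 80.8) for Selp. These leads depended on how deep cells were treated. With an upper limit of 6000 genes per cell, and with 10 CPM added, the lead of Ackr1 at day 3 was 9.33-fold in place of 25.7-fold and that of Vcam1 in sham 6.73-fold in place of 23.8-fold.

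The genes were also graded without zone limits. Endothelial-like cells with at least 1000 UMIs and without a lead of arterial markers were thinned to 1000 UMIs. They were sorted by the number of venous minus the number of capillary markers. At day 3 Ackr1 was 0.0167 UMIs per 1000 in cells with a balance of -4 or less, 1.26 at a balance of 0 and 5.47 at 3 or more, with each step above the one before. In sham the same ends were 0.00054 and 0.333 UMIs per 1000. Vwf already differed at the capillary end, with 0.112 UMIs per 1000 in sham and 0.539, 0.498 and 0.289 at days 1, 3 and 7, while the venous end held 3.29 (2.61 to 4.10), 6.09 (5.39 to 6.84), 5.53 (5.11 to 5.96) and 4.81 (4.12 to 5.58), so that sham was lowest at both ends. Between the ends it was not always lowest. At a balance of 1 Vwf was 2.22 (1.88 to 2.60) in sham and 1.70 (1.51 to 1.91) at day 1. At a balance of 2 it was 3.04 (2.56 to 3.59) in sham and 2.82 (2.42 to 3.27) at day 7. Vcam1 at day 1 was below sham in part of the grading only. At a balance of 0 it was 0.323 (0.267 to 0.388) at day 1 and 0.598 (0.454 to 0.773) in sham, and at a balance of 1 it was 0.526 and 1.13. At balances of -1, 2 and 3 or more the intervals of day 1 and sham overlapped, with 0.206 and 0.196, 1.26 and 1.17, and 1.41 and 1.83 UMIs per 1000. The venous end rests on few cells, 24 in sham, 46 at day 1, 120 at day 3 and 36 at day 7.

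**Figure D2:**
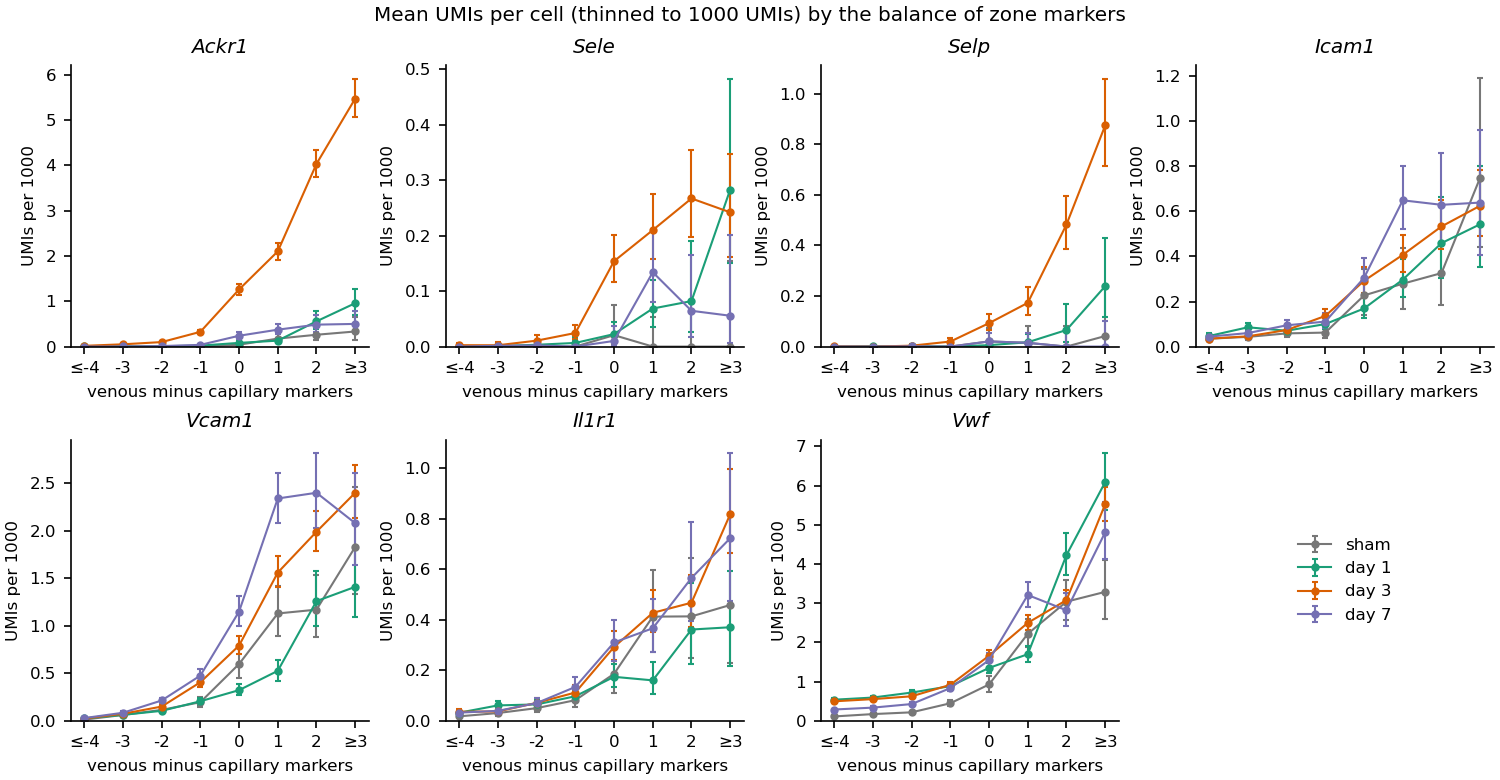
Mean UMIs of each gene per cell thinned to 1000 UMIs (vertical axis, from 0) against the number of venous minus capillary markers in the cell (horizontal axis), 1 line per library with 95% counting intervals. Ackr1 at day 3 rises to 5.47 UMIs per 1000 at the venous end, and Vwf at the capillary end is lowest in sham at 0.112.

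How much of the change over all endothelial-like cells went with the mix of zones was worked out by holding that mix fixed, and the answer depended on how zones were drawn. With zones from single cells, venous-like cells gave 2.63%, 4.43%, 10.6% and 2.76% of endothelial UMIs in sham and at days 1, 3 and 7, and cell numbers in the tissue cannot be told apart from numbers recovered. Ackr1 over all endothelial-like cells was 56.8-fold (49.2 to 65.9) over sham at day 3. It was 26.3-fold when the day 3 levels were weighted by the sham mix, and 2.86-fold when the sham levels were weighted by the day 3 mix. For Selp the corresponding values were 52.9-fold, 19.2-fold and 2.14-fold, and for Sele 48.2-fold, 25.3-fold and 2.62-fold. For the other genes the measured ratios and those from the mix lay closer together. Vcam1 was 3.03-fold in all, 1.87-fold at the sham mix and 1.84-fold from the mix alone. Il1r1 was 3.30-fold, 2.12-fold and 1.78-fold, Vwf 3.66-fold, 2.66-fold and 1.94-fold, and Icam1 2.82-fold, 1.97-fold and 1.47-fold. At day 7 the mix alone gave ratios of 1.01 to 1.09 for all 7 genes. With zones from clusters, an alternative added after these values had been seen, the venous-like cells were 12.2%, 12%, 13.6% and 11.9% of endothelial-like cells and gave 18%, 20.6%, 19.3% and 17.9% of their UMIs, with day 1 and not day 3 the highest in UMIs. The mix alone then gave 1.01 to 1.15 at day 3 for all 7 genes, and at the sham mix Ackr1 was 53.3-fold, Selp 49.4-fold, Sele 45.6-fold and Vcam1 2.73-fold. Before clustering, each gene had been centred and scaled within its library, which can draw the zone shares of the libraries together. The cluster shares therefore cannot decide whether the mix of zones differed between the libraries.

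**Figure D3:**
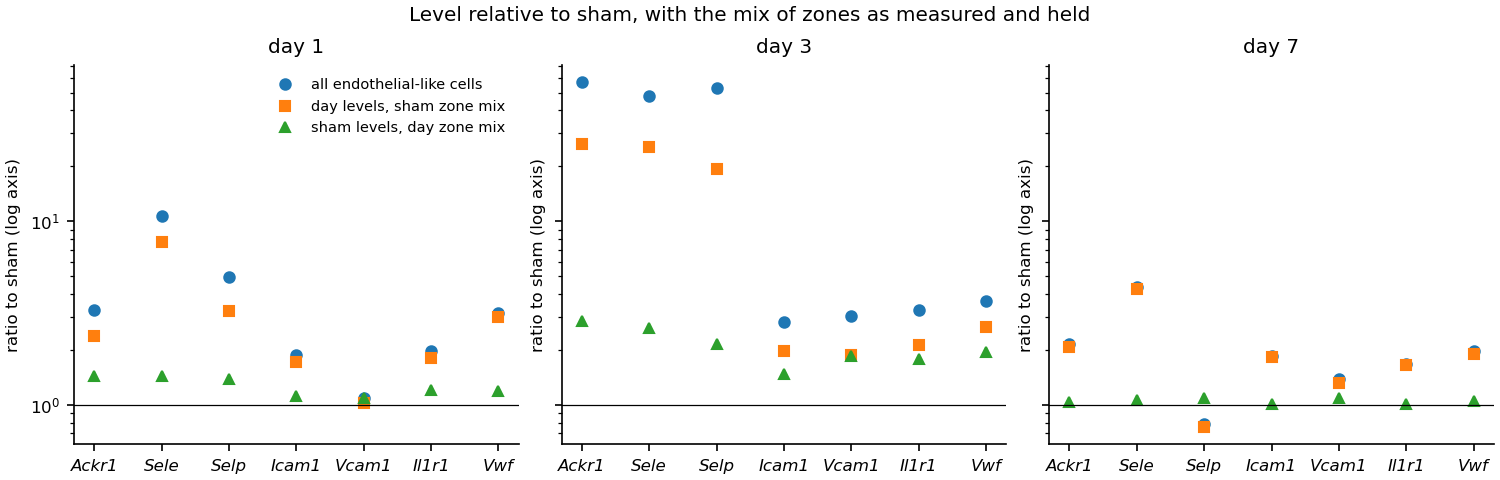
Ratio to sham over all endothelial-like cells (logarithmic axis) for each gene at days 1, 3 and 7, as measured (circles), with the day's levels at the sham mix of zones (squares) and with the sham levels at the day's mix (triangles), all with zones from single cells. At day 3 the triangles lie between 1.47 and 2.86, and the squares of Ackr1, Sele and Selp at 26.3, 25.3 and 19.2.

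The share of cells with a UMI was compared in cells with at least 1000 UMIs, each thinned to 1000, so that depth was equal. Cells with fewer UMIs were left out. Of the capillary-like cells, 3364 of 3848 remained in sham and 4160 of 5561 at day 1. Among venous-like cells Ackr1 was found in 16 of 113 (14.2%, 8.32 to 22.0) in sham, 50 of 188 (26.6%, 20.4 to 33.5) at day 1, 321 of 453 (70.9%, 66.4 to 75.0) at day 3 and 53 of 185 (28.6%, 22.3 to 35.7) at day 7. The cells that had it at day 3 also held more of it, with a mean of 5.77 UMIs against 1.75 in sham, 1.86 at day 1 and 1.94 at day 7. Sele was found in 0 of 113 thinned sham cells, where 3 counts would be a share of 2.65%, although the same zone held 8 UMIs before thinning. It was found in 10.1%, 14.8% and 3.24% of cells at days 1, 3 and 7. Selp was found in 0.885%, 5.85%, 21.2% and 1.62%. Vcam1 was found in 52.2%, 46.8%, 63.1% and 73.0%, Icam1 in 17.7%, 29.8%, 33.6% and 31.4%, and Il1r1 in 31.0%, 27.1%, 38.2% and 40.0%. Vwf was near its ceiling, in 83.5% to 87.6% of venous-like cells. Among capillary-like cells its share was 10.8% (9.76 to 11.9) in sham, 37.8% (36.3 to 39.3) at day 1, 36.3% (34.7 to 37.9) at day 3 and 23.5% (22.5 to 24.6) at day 7, and that of Ackr1 0.178%, 0.889%, 4.41% and 0.451%.

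Free RNA in the droplets gives every cell type a low share, and oligodendrocyte-like cells, which should lack these genes, served as the gauge. Ackr1 was found in 0.0897% to 0.375% of them and Vwf in 0.25% to 0.718%. In the oligodendrocyte-like cells that were thinned, the median depth before thinning was 4850 to 7932 UMIs. It was 2685 to 3364 in the thinned venous-like and 2213 to 3215 in the thinned capillary-like cells. Over all cells of these 2 zones the medians were 2428 to 2976 and 1732 to 2730 UMIs. In sham the shares of Ackr1 in capillary-like and oligodendrocyte-like cells were 0.178% (0.0655 to 0.388) and 0.136% (0.00345 to 0.756) and could not be told apart, while the levels, 4.38 CPM (3.29 to 5.69) and 0.721 CPM (0.196 to 1.85), did not overlap. At day 3 the shares were 4.41% (3.75 to 5.15) and 0.375% (0.0774 to 1.09). Without thinning, 27.8% of venous-like cells had Ackr1 in sham, 44.5% at day 1 and 43.8% at day 7.

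**Figure D4:**
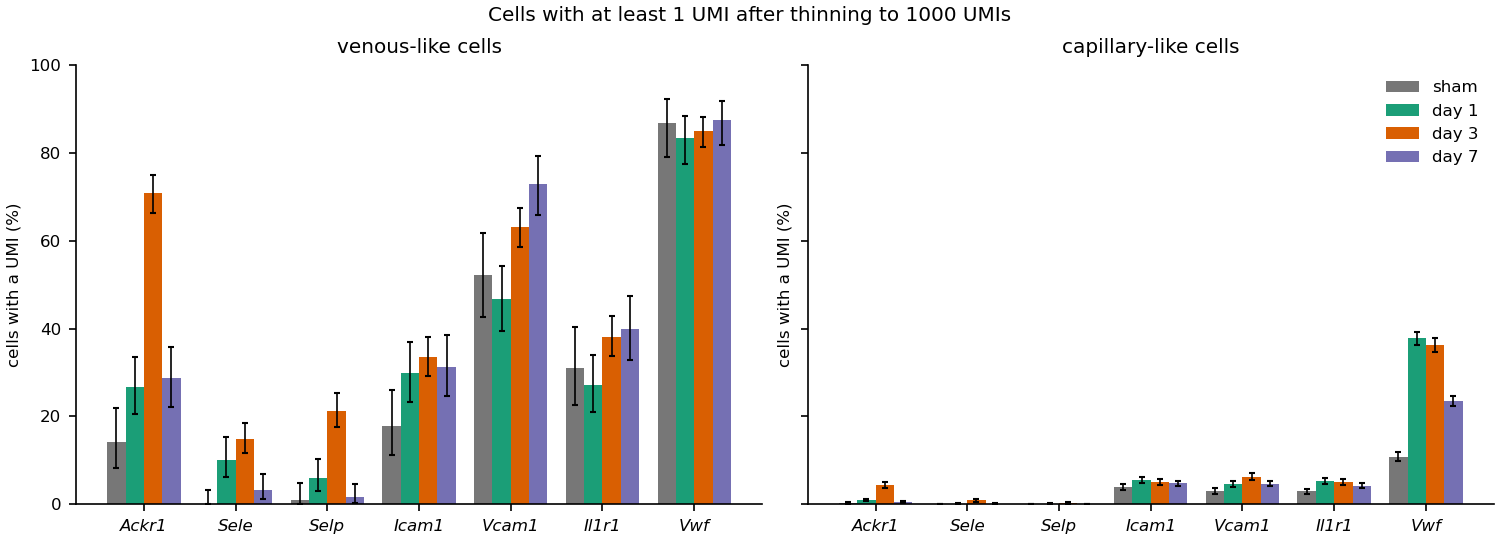
Share of venous-like (left) and capillary-like (right) cells of at least 1000 UMIs that had at least 1 UMI of each gene after thinning to 1000 UMIs (percent, axis from 0 to 100), bars by library with exact 95% binomial intervals. Ackr1 stands at 70.9% of venous-like cells at day 3, and Vwf at 37.8% of capillary-like cells at day 1 against 10.8% in sham.

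The genes were also met together in single cells, counted after thinning to 1000 UMIs. At least 3 of the 7 were found in 34 of 113 venous-like cells in sham (30.1%, 21.8 to 39.4), 73 of 188 at day 1 (38.8%, 31.8 to 46.2), 317 of 453 at day 3 (70.0%, 65.5 to 74.2) and 106 of 185 at day 7 (57.3%, 49.8 to 64.5). In capillary-like cells the shares were 0.535%, 1.56%, 3.45% and 1.57%, and in unzoned cells 7.39%, 8.07%, 21.7% and 10.6%. Among all thinned endothelial-like cells, unzoned ones included, all 7 were found in 7 cells, each of them venous-like and from day 3. One pair seen together was Selp with Ackr1. At day 1 the shares of cells with Selp overlapped, at 12% (4.53 to 24.3) with Ackr1 and 3.62% (1.19 to 8.25) without it. At day 3, 95 of the 321 venous-like cells with Ackr1 also had Selp (29.6%, 24.7 to 34.9), against 1 of the 132 without it (0.758%, 0.0192 to 4.15). Sele was less tied to it, in 17.4% (13.5 to 22.0) of cells with Ackr1 and 8.33% (4.23 to 14.4) of those without. Vcam1 was found in 72.0% and 41.7%, and Icam1 in 38.9% and 20.5%. In sham, 18 of 59 cells with Vcam1 had Icam1 (30.5%, 19.2 to 43.9), against 2 of 54 without (3.70%, 0.452 to 12.7). Cells with one venous gene are on average further along the venous grading, and the part of that in these shares was not tested.

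Across the other cell classes the genes had second homes that differed. Icam1 in microglia-like cells was 457.5 CPM (393 to 530) in sham, overlapping the venous-like value of 368 CPM, and 416, 252 and 432 CPM at days 1, 3 and 7, below the venous-like level each time. Il1r1 had its next level in pericyte-like cells, at 66.6, 62.7, 71.7 and 64.0 CPM, values whose intervals overlap one another. Pericyte-like cells stood apart from the class after them in sham only. Their interval overlapped that of fibroblast-like (61.1 CPM) and capillary-like cells (59.3 CPM) at day 1, capillary-like cells (57.8 CPM) at day 3 and smooth muscle-like cells (48.2 CPM) at day 7. Vcam1 was second in arterial-like cells in sham and at days 3 and 7. At day 1 the fibroblast-like cells, with 574 CPM (503 to 652), came after the venous-like ones, overlapping the arterial-like 473 CPM (441 to 508). Astrocyte-like cells had 192 CPM (136 to 264) of Vcam1 in sham, 101 CPM (73.6 to 136) at day 1 and 161 CPM (117 to 216) at day 3, and choroid plexus-like cells 109, 202 and 214 CPM in sham and at days 1 and 7. Sele was at most 2.40 CPM, and Selp at most 9.92 CPM, in any named class outside the endothelium with at least 50 cells. The 9.92 CPM of Selp were 3 UMIs in neutrophil-like cells at day 3.

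**Figure D5:**
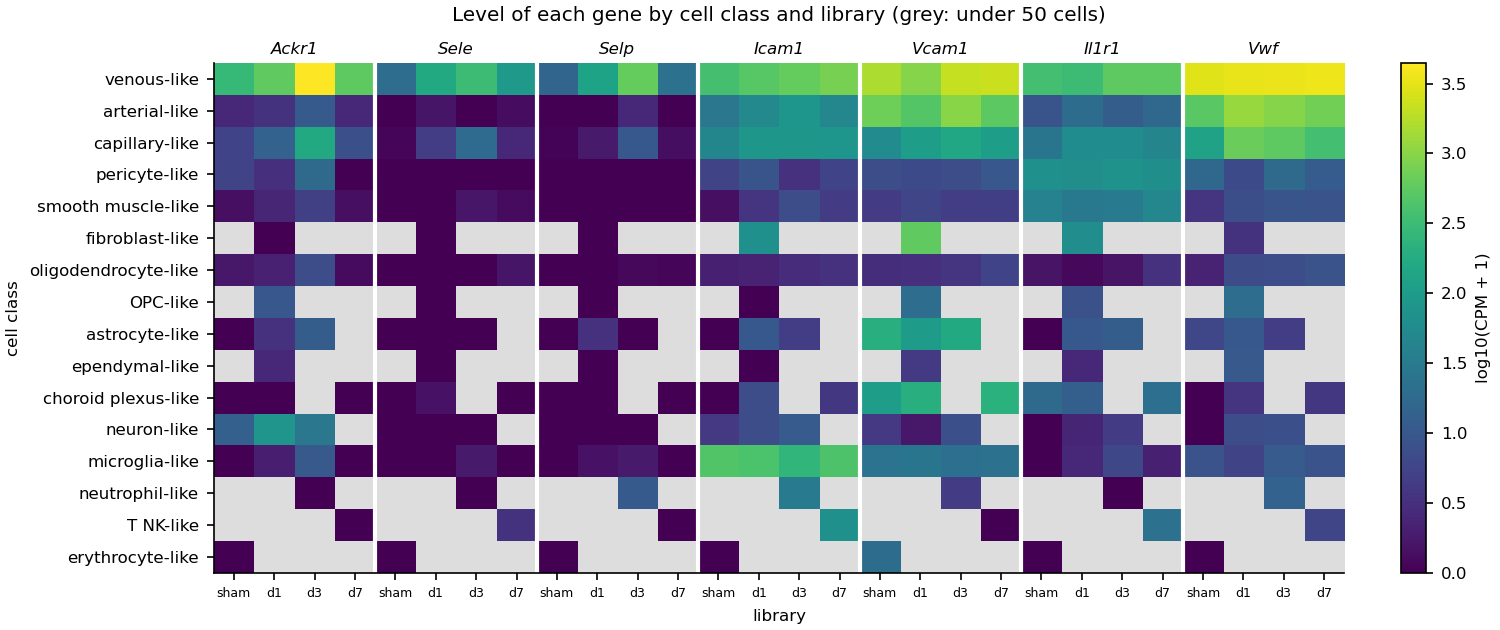
Level of each gene as log10(CPM + 1) (colour) in each cell class (rows) and library (columns, grouped by gene), with classes under 50 cells in grey. Venous-like cells are the brightest row throughout except for Icam1 in sham, where microglia-like cells stand at 457.5 CPM and venous-like cells at 368 CPM.

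Venous-like cells, which were 1.33% to 5.14% of all UMIs of a library, gave 54.4%, 50.4%, 64.9% and 53.1% of its Ackr1 UMIs in sham and at days 1, 3 and 7. They gave 75.6% and 77.9% of the Selp UMIs at day 1 and day 3, from 127 and 1325 in all. Of the Selp UMIs in endothelial-like cells, they held 6 of 23 in sham and 14 of 26 at day 7. For Vwf they gave 27.6%, 15.9%, 34.7% and 17.5%, and at day 1 the capillary-like cells gave 54.4%.

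Outside the endothelium the one class with a sizeable Ackr1 level was that of neuron-like cells at day 1. Of the 846 UMIs of Ackr1 in the day 1 library, 111 (13.1%) were in 443 neuron-like cells, a level of 77.8 CPM (64.0 to 93.7). It was found in 83 of them (18.7%, 15.2 to 22.7), with at most 4 UMIs in a cell, and in 4 of 75, 8 of 75 and 2 of 39 neuron-like cells in sham and at days 3 and 7. After thinning, the day 1 share was 28 of 425 (6.59%, 4.42 to 9.38). Of the 83 cells, 58 had none of the 6 endothelial markers, and the other genes of the set were nearly absent from the 443, with 0 UMIs of Sele, 0 of Selp, 1 of Vcam1, 2 of Il1r1, 9 of Icam1 and 9 of Vwf. Cadm3, which shares exon bases with Ackr1, was 227 CPM (203 to 253) in day 1 neuron-like cells. It was found in 56 of the 83 cells with Ackr1 (67.5%) and in 114 of the 360 without (31.7%), and the cells with Ackr1 were deeper, with a median of 3986 against 2726 UMIs. The part of shared exon reads in this result was not tested. In venous-like cells the order was the other way round, with 80.4 CPM of Cadm3 and 4443 CPM of Ackr1 at day 3.

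Genes named for their difference between these neuron-like cells were picked after their values had been seen. Vip, a peptide of a class of inhibitory interneurons, was 410 CPM in cells with Ackr1 and 50.4 CPM in the others. Cnr1, the cannabinoid receptor, was 451 and 75.2 CPM, and Cck, the peptide cholecystokinin, 953 and 285 CPM.

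The partners of the adhesion programme were read from lists drawn up by function. Of 10 chemokines bound by Ackr1, 9 were counted and 2 were measurable in venous-like cells, the neutrophil attractants Cxcl1 and Cxcl2. Cxcl2 was 31.3 CPM (16.6 to 53.5) in sham, 397 CPM (353 to 444) at day 1, 126 CPM (110 to 144) at day 3 and 114 CPM (88.7 to 143) at day 7. It was highest at day 1, at 12.7-fold (7.31 to 24.1), and so came before the peak of Ackr1. Cxcl1 was 98.6 CPM (70.8 to 134), 274 CPM (238 to 314), 288 CPM (263 to 314) and 125 CPM (98.6 to 156), and the ratios to sham at days 1 and 3 were 2.78 (1.98 to 3.99) and 2.92 (2.12 to 4.12). Ccl2, also bound by Ackr1, had 0, 5, 3 and 0 UMIs. Microglia markers in venous-like cells summed to 26.5, 76.1, 74.0 and 59.2 CPM, and their part in the chemokine values was not tested. Over all endothelial-like cells Cxcl2 was counted at day 1, with 88.4 CPM against 16.7 CPM in sham.

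Among 8 genes of the NF-κB response, 1 of 7 or 8 measurable was counted as higher in venous-like cells at each time, beside 3.03%, 3.52% and 2.59% of all measurable genes, and none as lower, beside 6.90%, 4.72% and 1.69%. The same shares stand beside the counts of the other lists in venous-like cells. The gene counted was Tnfaip3, the feedback inhibitor A20, with 21.6 CPM (9.90 to 41.1) in sham and 114 CPM (90.7 to 140), 54.8 CPM (44.3 to 67.0) and 60.8 CPM (43.0 to 83.4) at days 1, 3 and 7. Nfkbia, the other feedback inhibitor of the pathway, was 1993, 2101, 2123 and 2888 CPM. The list's median difference from sham was -0.31, 0.07 and 0.45 on the log2 scale, beside -0.17, -0.11 and 0.05 for all measurable genes. Of the 11 genes of the interleukin 1 axis other than Il1r1, 4 to 6 were measurable in venous-like cells and 0 were counted at any time, with Il1b at 0, 0, 2 and 0 UMIs. The accessory chain Il1rap had 2, 4, 10 and 3 UMIs.

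Of 15 junction and transmigration genes, 10 or 11 were measurable in venous-like cells. Podxl, a sialomucin that can carry selectin ligands, was counted at day 3, with 998 CPM (952 to 1047) against 486 CPM (421 to 558) in sham, and it was 304.5 CPM at day 1 and 590 CPM at day 7. It was also the one gene of the list counted over all endothelial-like cells, at day 3 (1294 against 624 CPM). Mcam, the adhesion molecule CD146, was counted at day 1 on 26 UMIs against 5. The constitutive ligand Icam2 was 322, 240, 272 and 253 CPM, and the junction proteins Pecam1 and Cdh5 were 731, 547.5, 562 and 739 CPM and 527, 471, 391.5 and 467 CPM. The median difference of the list was -0.25, -0.24 and -0.06 at days 1, 3 and 7.

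Of 8 genes of Weibel-Palade bodies and partners of von Willebrand factor, 5 to 7 were measurable, and calls were made only at day 3. Cd63, a membrane protein of these granules, was 41.9 CPM (32.8 to 52.8) against 14.4 CPM (5.29 to 31.4) in sham, on 72 against 6 UMIs. Plat, tissue plasminogen activator, was lower, with 42.5 CPM (33.3 to 53.5) at day 3 against 149 CPM (114 to 191) in sham, 163 CPM at day 1 and 202 CPM at day 7. Rab27a, a trafficking protein of the granules, was also lower at 9.90 CPM against 43.3 CPM, on 17 against 18 UMIs. For these the background was 3.52% higher and 4.72% lower of all measurable genes.

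Among 6 genes of resting endothelium, 0 of 6 were counted at any time in venous-like cells. Klf2, a transcription factor kept up by blood flow, was 4112 CPM (3919 to 4311) in sham, 2700 CPM (2584 to 2821) at day 1, 2196 CPM (2126 to 2267) at day 3 and 3321 CPM (3180 to 3467) at day 7. Thbd, the anticoagulant thrombomodulin, was 267, 159, 152 and 242 CPM. Klf2 was lowest at day 3, Thbd at days 1 and 3 could not be told apart, and neither was counted as lower than sham. Of 3 other atypical chemokine receptors, only Ackr3 was measurable, and it was 69.7 CPM (46.7 to 100), 46.7 CPM (32.6 to 65.0), 30.3 CPM (22.6 to 39.7) and 56.0 CPM (39.0 to 77.9). The intervals of neighbouring times overlapped, while that of day 3 lay below that of sham. Ackr3 was not counted as lower than sham at any time. Of the 11 leukocyte counter-receptors, 1 was measurable in venous-like cells and it was not counted.

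Likeness of pattern was measured as Pearson's r of log-scaled levels across 43 units, each a cell class or zone in 1 library, over 10130 genes. The units share libraries and depth, so r is a description. Sele and Selp were most alike among the members (r = 0.948), followed by Ackr1 and Sele (r = 0.924), and Icam1 and Il1r1 were least alike (r = 0.457). The members are left out of the likenesses that follow. Among the other genes, Ackr1 was most like Gm5127 (r = 0.880), Slco2a1 (r = 0.876), a prostaglandin transporter, and Lhx6 (r = 0.851). Outside the members, Sele shared the first 2 of these genes with Ackr1, at r = 0.907 and 0.894. Selp was most like Csf3 (r = 0.953), the granulocyte colony-stimulating factor, and Best1 (r = 0.910). Icam1 was most like Slco2b1 (r = 0.918) and Stab1 (r = 0.911), and Vcam1 most like Slc12a7 (r = 0.865). Il1r1 was most like Gpr182 (r = 0.842), and Vwf most like B3gnt3 (r = 0.980) and Tmem252 (r = 0.977), which is itself one of the venous markers of the sorting.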

How the data were processed

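Counts of UMIs per gene and cell were deposited by the authors as one matrix per library, filtered to cell barcodes. Per the study's methods, reads were mapped with Cell Ranger 3.0.1 and analysed with Seurat 4.1.2. The header of the matrices names version 4.0.0, and the genome build is given as GRCh38 although the gene identifiers are those of mouse. The stated limits, 200 to 3000 detected genes and no more than 10% of UMIs from mitochondrial genes, were applied here and left fewer cells than the methods report, with medians of 2508 to 3732 UMIs.

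A cell took a class with at least 3 of 6 markers and a lead of 2 over the next class, and a zone with at least 2 zone markers and more than any other zone. The scoring rule was set after the cell yields had been seen. The members, markers and gene lists were chosen with earlier results of these data known. Doublets were left in, because the automatic threshold of Scrublet marked 0.0142% to 0.264% of cells in 3 libraries and 4.35% in the fourth, and the highest 5% of scores were left out as an alternative.

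UMIs were summed per class or zone and library. Intervals are exact (Poisson for levels, conditional binomial for ratios, Clopper-Pearson for shares) at 95%. No test was run between libraries. Beyond the members, up to 3 genes per list with the largest ratio past 2-fold (10 CPM added, at least 20 CPM in one library) were named, and for likeness the leading 3 genes with at least 50 CPM in some unit. Other genes of the lists were named after their values had been seen. Positions came from GENCODE vM21 on GRCm38 and sequences from RefSeq. Scripts used Python 3.11.15, numpy 2.4.6, scipy 1.17.1, pandas 2.3.3, scanpy 1.11.5, igraph 0.11.9 and matplotlib 3.10.9, and were tested on simulated data.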

Additional observations from a re-analysis of the deposited data

Results flagged for a closer look

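Vcam1 stood on opposite sides of sham in different endothelial zones. At day 1 it was 1.90-fold over sham in capillary-like cells, and 0.683 and 0.601 of sham in arterial-like and venous-like cells. At day 7 it was 1.83-fold in capillary-like and 1.44-fold in venous-like cells, and 0.765 of sham in arterial-like cells. With 1 library per group the difference between zones was not tested. The sham venous-like level rested in large part on few cells, with 56.7% of its Vcam1 UMIs in the 13 highest of 126. With zones taken from clusters the venous-like ratio of day 1 was 1.18.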

How the results depend on the processing

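The number of members counted as higher in venous-like than in capillary-like cells stayed within 1.5 times of the reported number under every alternative. Counts against sham moved as follows, each with the share of all measurable genes under the same setting, computed after the data had been seen. With zones from clusters, venous-like cells gave 4 members at day 1 (1.26%), 7 at day 3 (3.39%) and 3 at day 7 (0.841%) in place of 2, 3 and 2. At day 1 they gave 3 with 6000 genes per cell (4.43%), a mitochondrial limit of 5% (3.22%) or venous markers without Slc38a5 (4.35%). The day 1 count was also 3 with median-of-ratios factors (5.15%), the mean of each cell's CPM (4.65%) or 1 CPM added (4.77%). At day 7 they gave 3 with 6000 genes per cell (1.79%). With the mean of each cell's CPM, venous-like cells gave 4 at day 7 in place of 2 (4.78%), and all endothelial-like cells 1 at day 1 in place of 2 (1.23%). For all endothelial-like cells at day 7, where 0 were counted, 6000 genes per cell gave 2 (0.749%), and a mitochondrial limit of 5% (0.493%) or 1 CPM added (1.05%) gave 1. Capillary-like cells at day 1 gave 2 in place of 1 (Vwf, joined by Ackr1 or Il1r1) with 6000 genes, the 5% limit, the stricter gate, clusters, median-of-ratios factors or 1 CPM added (1.12% to 1.93%). At day 3 they gave 5 in place of 3 with 6000 genes (1.61%) and with venous markers without Slc38a5 (1.51%). With the 5% limit (1.49%) or 1 CPM added (2.08%) that count was 4. Without a minimum level, 0.493%, 0.593% and 0.154% of all genes passed 2-fold at days 1, 3 and 7. Thinning to 500 UMIs gave venous-like shares of Ackr1 of 13.8%, 57.6% and 18.4% at days 1, 3 and 7, and no thinning gave 27.8% in sham, 44.5% at day 1 and 43.8% at day 7. With zones from clusters the ratios from the mix alone at day 3 lay between 1.01 and 1.15, against 1.47 to 2.86 from single cells. Genes had been scaled within each library for the clusters, so the first range cannot decide whether the mix differed. The causes were not tested.

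Of 490 single ratios under the alternatives, 230 left the counting interval of the main ratio. That interval was computed without added CPM, while the ratios held an added 10 CPM, or 1 CPM in the setting of that name. The 230 therefore mix this addition with the alternatives, and with 1 CPM added 4 of 49 left the interval. Direction was kept by 484 of the 490. The 6 exceptions, all in venous-like cells, were Vcam1 and Il1r1 at day 1 from clusters (1.18 and 1.60), Il1r1 at day 1 with median-of-ratios factors (1.03), Icam1 and Vwf at day 1 with 6000 genes (0.991 and 0.885) and Selp at day 7 from clusters (0.828). Leaving out a library was not possible, since each group has 1. No paired analysis was possible because each group has 1 library and the labels give no replicate numbers. The selectins in sham rest on few UMIs, with 8 of Sele and 6 of Selp in the 126 venous-like cells.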
